A study of Mus musculus with 15 samples.

Results

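A small set of genes was silent or nearly so in laser-captured samples of Purkinje cells (PCs) at birth and at P4. Its genes were expressed in such samples by the third postnatal week. Which cells in the samples held their RNA was not tested. PCs are the large inhibitory neurons that carry the output of the cerebellar cortex. A gene entered the set when its level was below 2 CPM (the gene's counts per 1000000 counts on genes in that library) in every P0 and P4 sample, averaged at least 10 CPM at P21 and was above 5 CPM in each P21 sample. Of the 38561 genes in the count files 41 met this rule, which is 0.494% of the 8293 genes that met its P21 part. The levels at P0, P4 and P21 chose these genes and are therefore given as a description, with no test. P8 and P14 were not used by the rule, and P14 against P8 is the comparison that was tested. P8 was also the earliest sampled day after the first week, and at P8 all 3 samples were above 5 CPM for 12 of the 41 genes.

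The samples are PCs cut out of frozen cerebellar sections by laser capture microdissection. The 15 libraries fall into 5 groups by age from the day of birth (P0) to P21, with P4, P8 and P14 between them, and each age has 3 libraries that the methods call biological replicates. The animals were untreated mice of a strain that the labels write as C56/BL6 and the methods as C57/BL6, and the methods state that they were male. Each P4 to P21 sample was collected as 1000 cell bodies picked from several sections, whereas the P0 samples were clusters of PCs, so the P0 libraries differ from the rest in how cells were taken. Age is the only variable that the labels give between groups. Counts on genes ranged from 3409371 to 7814951 per library. In such bulk samples fewer cells of a type and less RNA per cell cannot be told apart.

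Several library facts stand before the results. The 6 PC marker genes (*Calb1*, *Itpr1*, *Pcp2*, *Pcp4*, *Car8* and *Ppp1r17*) summed to between 5046 and 6747 CPM at P0 and to between 32880 and 39800 CPM at P21, so the labelled cell type was present at every age. The 8 listed Bergmann glia and astrocyte markers summed to between 4293 and 6209 CPM at P0 and to between 2447 and 4050 CPM at P21. The balance of PC and glial marker RNA thus differed between the ages that the rule used. P0 replicate 1 held 328 CPM of *Xist*, the RNA of the inactive X chromosome, and no count of the Y-linked genes *Ddx3y* and *Eif2s3y*, unlike the other 14 libraries. Without that library 42 genes met the rule, among them all 41. A second division separated 7 libraries (all P8, all P21 and P14 replicate 1) from the other 8 (all P0, all P4 and P14 replicates 2 and 3). Among all genes it was followed at least 2-fold by *Dynlt1b*, a member of the set, and in the opposite direction by *Wdfy1* and *Fbn1*, which are not members. For members that follow it, age and this division cannot be told apart, and counts below are also given without P14 replicate 1 where they move.

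PC maturation in the mouse runs through the first 3 postnatal weeks. Around birth the cells lie in several layers with short processes. They then form a single row, grow a planar dendritic tree, gain synapses from climbing fibres and from the parallel fibres of granule neurons, and acquire fast, regular spiking, which relies on sodium channels that reopen briefly after each spike. Myelin forms around their axons at the end of this period, and granule neurons and interneurons settle around them.

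The promoter of a gene is the DNA around the point where transcription starts. RefSeq promoter windows (250 bases before to 50 bases after the start, build GRCm38.p6) were found for 31 of the 41 members. Those of *Cpeb1*, *Scn4b*, *Th* and *Gabra6* are shown since these members reached high levels by different courses, and capitals mark the motifs searched on both strands. These were TATAAA, known as the TATA box, AGGTCA, the core bound by many nuclear receptors, TGACGTCA, the cyclic AMP response element, and 2 E-boxes, CACGTG and another spelled CAGCTG. Read on the opposite strand, a TATA box appears as TTTATA. The windows lie at chr7:81454709-81455008 (minus strand), chr9:45138374-45138673 (plus strand), chr7:142899946-142900245 (minus strand) and chr11:42321023-42321322 (minus strand), and each is written 5′ to 3′ along its own gene.
Cpeb1: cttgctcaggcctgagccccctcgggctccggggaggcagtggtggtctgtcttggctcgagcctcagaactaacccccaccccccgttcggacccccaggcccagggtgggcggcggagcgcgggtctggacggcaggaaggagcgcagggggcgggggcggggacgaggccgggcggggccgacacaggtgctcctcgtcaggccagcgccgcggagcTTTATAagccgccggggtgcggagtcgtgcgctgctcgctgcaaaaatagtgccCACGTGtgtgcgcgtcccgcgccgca
Scn4b: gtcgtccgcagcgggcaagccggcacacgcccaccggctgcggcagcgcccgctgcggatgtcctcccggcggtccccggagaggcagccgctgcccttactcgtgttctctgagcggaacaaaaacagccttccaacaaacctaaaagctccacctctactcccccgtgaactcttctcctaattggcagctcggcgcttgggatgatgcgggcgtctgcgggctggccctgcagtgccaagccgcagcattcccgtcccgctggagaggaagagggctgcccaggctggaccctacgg
Th: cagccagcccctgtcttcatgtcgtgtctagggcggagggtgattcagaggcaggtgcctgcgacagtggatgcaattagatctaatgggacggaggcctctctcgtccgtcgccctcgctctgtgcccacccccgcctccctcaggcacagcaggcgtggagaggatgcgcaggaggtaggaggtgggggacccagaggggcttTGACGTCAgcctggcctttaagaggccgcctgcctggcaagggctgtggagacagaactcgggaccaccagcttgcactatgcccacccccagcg
Gabra6: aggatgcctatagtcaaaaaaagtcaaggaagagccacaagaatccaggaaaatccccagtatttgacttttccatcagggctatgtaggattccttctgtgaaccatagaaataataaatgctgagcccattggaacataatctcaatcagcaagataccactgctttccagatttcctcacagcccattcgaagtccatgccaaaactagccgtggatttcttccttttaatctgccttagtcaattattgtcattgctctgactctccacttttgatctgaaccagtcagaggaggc
The *Cpeb1* window holds TATAAA on the opposite strand 30 bases before the start. *Th* carries the cyclic AMP response element 45 bases before the start, and *Daam2* was the other member with it. None of the 5 motifs is in the *Scn4b* or *Gabra6* window.

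A gene was counted once for a motif if any of its windows held it. The 31 matched members had 41 windows and the 27025 genes with a window had 32851, so members had slightly more windows per gene. TATAAA was found in 3 of the 31 members (9.68%, against 15.7% of the 27025 genes), AGGTCA in 3 (9.68% against 18.1%) and TGACGTCA in 2 (6.45% against 2.03%). CACGTG was found in 5 (16.1% against 8.09%) and CAGCTG in 9 (29.0% against 18.3%), and none of these motifs is contained in another. A GC content over 50% with a CpG observed over expected ratio over 0.6 was met by 11 members (35.5%, against 35.8% of all). The median GC content was 59.7% in the members and 52.75% in all genes. Of the printed windows that of *Cpeb1* was the richest in G and C (72.7%) and that of *Gabra6* the poorest (42.0%). These counts describe letters in a window and were not tested.

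The summed level of the 41 genes was 5.67 ± 2.29 CPM at P0 and 7.62 ± 4.03 CPM at P4 (SD, n = 3 here and below). It was 547 ± 130.1 CPM at P8, 1269 ± 13.9 CPM at P14 and 2032 ± 114 CPM at P21. Single members averaged between 10.3 and 208 CPM at P21, with a median of 26.3 CPM against 42.8 CPM for all genes that met the P21 part of the rule. The 6 highest made up 48.0% of the summed P21 level. In all, 8 members had no count in any P0 or P4 library, which allows a level of up to 0.0981 CPM over those 6 libraries (3 counts, counting error only).

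**Figure D1:**
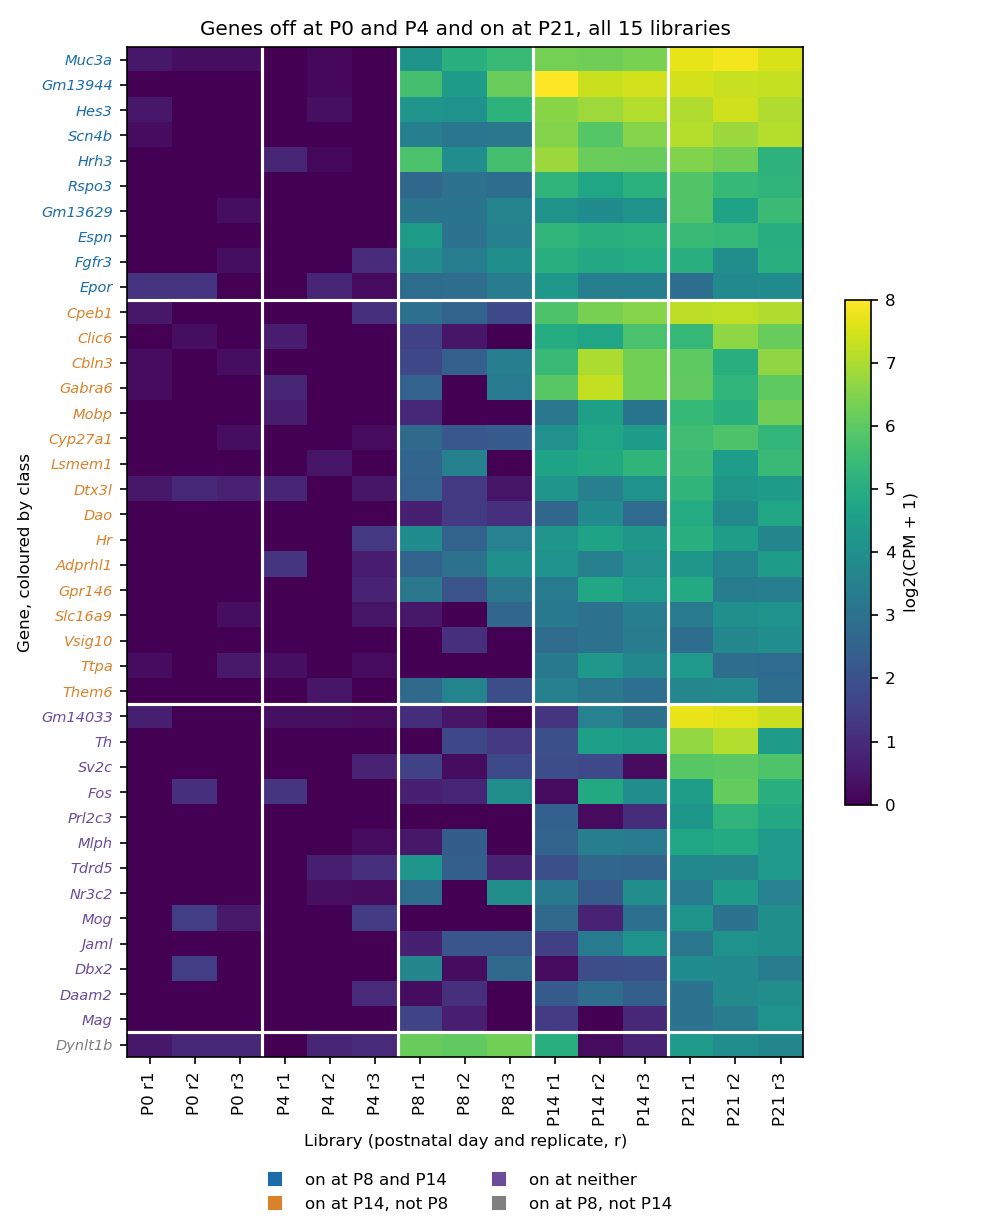
Map of log2(CPM + 1) for the named genes of the set (rows) in the 15 libraries (columns, by postnatal day and replicate), with gene names coloured by class. P0 and P4 are near 0 throughout, as the rule requires, and the classes differ in how much signal stands at P8 and P14, with *Dynlt1b* in the bottom row high in P14 replicate 1 and not in replicates 2 and 3.

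With the bar of the rule at P21, above 5 CPM in all 3 samples, carried over to P8 and P14, the members fell into classes by age. 10 were past it at P8 and at P14, namely *Muc3a*, *Gm13944*, *Hes3*, *Scn4b*, *Hrh3*, *Rspo3*, *Gm13629*, *Espn*, *Fgfr3* and *Epor*. Another 16 were past it at P14 and not at P8, namely *Cpeb1*, *Clic6*, *Cbln3*, *Gabra6*, *Mobp*, *Cyp27a1*, *Lsmem1*, *Dtx3l*, *Dao*, *Hr*, *Adprhl1*, *Gpr146*, *Slc16a9*, *Vsig10*, *Ttpa* and *Them6*. 13 were past it at neither age, namely *Gm14033*, *Th*, *Sv2c*, *Fos*, *Prl2c3*, *Mlph*, *Tdrd5*, *Nr3c2*, *Mog*, *Jaml*, *Dbx2*, *Daam2* and *Mag*, and the remaining 2, among them *Dynlt1b*, were past it at P8 and not at P14. The numbers past the bar at P14 and not at P8, and at neither age, rest in part on P14 replicate 1. Without that library 22 members were past the bar at P14 and not at P8, and 7 at neither age.

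The mean at P8 was 14.2% of the mean at P21 in the median member, and the mean at P14 was 62.8%. At P8 19 members were under 10% of their P21 level and 8 at 50% or more. At P14 only 4 members were under 10%, namely *Sv2c*, *Gm14033*, *Prl2c3* and *Mag*, and 25 were at 50% or more. In 9 members the P14 mean was above the P21 mean, with *Gabra6* (174%), *Cbln3* (126%), *Hrh3* (126%) and *Ttpa* (126%) among the highest. In none of the 41 was every P21 sample below every P14 sample. The rule asked for signal in each P21 sample, which works against falls to P21, so nothing is concluded from this count. In 17 members every P21 sample was above every P14 sample, and in 21 every P8 sample was above every P0 and P4 sample. The rule chose on P0, P4 and P21, which favours both counts. Their share over all genes was not computed, so nothing is concluded from them either.

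**Figure D2:**
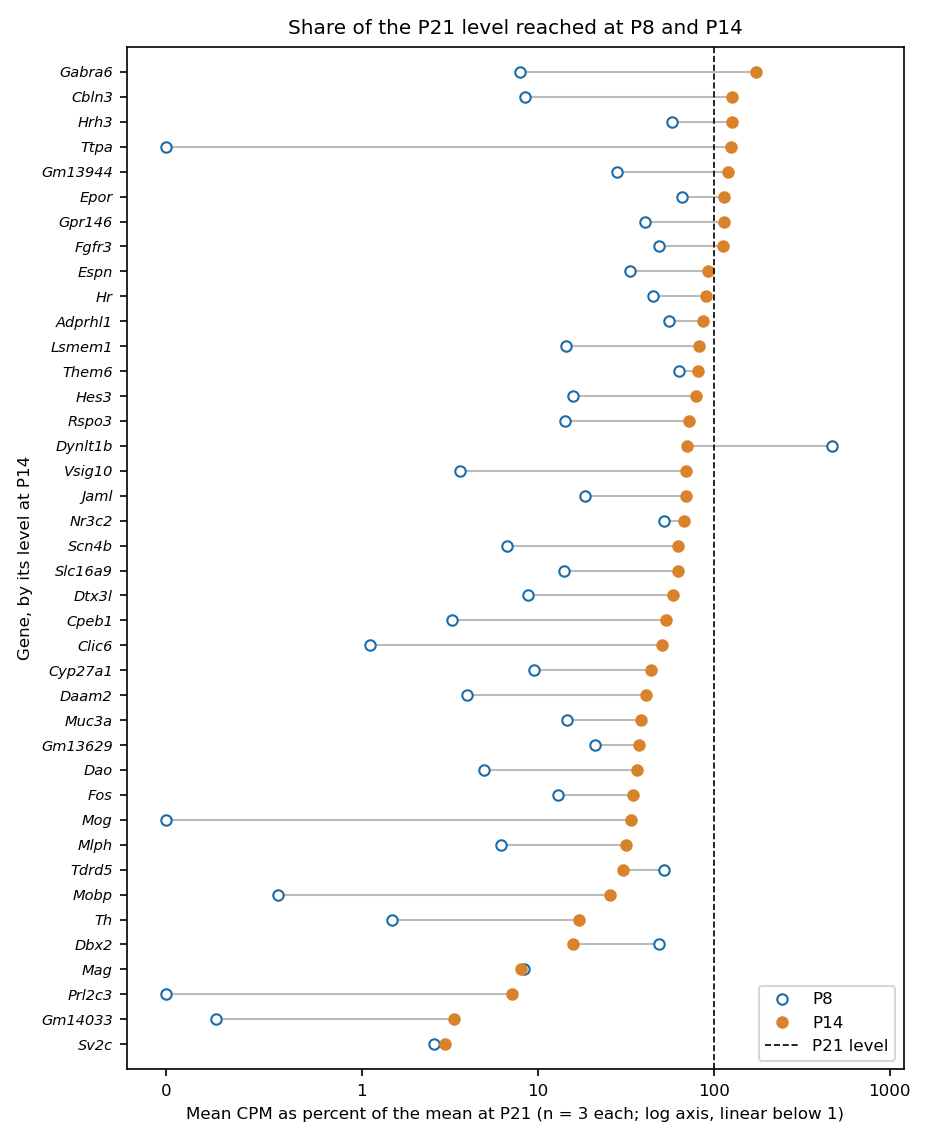
Mean level at P8 (open circles) and P14 (filled circles) as a percent of the mean at P21 (dashed line, n = 3 at each age) for the named genes of the set, ordered by the P14 value, on an axis that is logarithmic above 1% and linear below. The lowest rows, *Sv2c* and *Gm14033*, are at 2.96% and 3.32% at P14, and *Dynlt1b* is the row with P8 to the right of the P21 line.

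Between P8 and P14, 12 of the 41 members rose and none fell at an adjusted p below 0.05 (edgeR quasi-likelihood test over 12643 genes, Benjamini-Hochberg adjustment). Over all genes tested 489 rose (3.87%) and 371 fell (2.93%). A count of 37 members passed the filter on low counts, of which 18 needed P14 samples to do so, and *Gm14033*, *Prl2c3*, *Mog* and *Mag* were not tested. Of the 12 that rose, 8 had every P8 sample at the bar of the filter. The other 4 (*Clic6*, *Gabra6*, *Mobp* and *Ttpa*) needed P14 samples to enter the test, which favours a rise for them. The median log2 fold change was 2.23 over the 37 and −0.03 over all genes tested, where the rule itself asks of the members more signal at P21 than at P4. At an unadjusted p under 0.05, 22 members were higher and 1, *Dynlt1b*, was lower. DESeq2 called 20 members higher and 0 lower, limma-voom called 2 lower, and the edgeR count was 7 without P14 replicate 3 and 8 without P14 replicate 1. Every P14 sample was above every P8 sample for 30 of the 41 members, against 7.62% of 19011 genes with a count at P8 or P14. Those genes include ones with very few counts, in which samples can tie at 0. The members were chosen for more signal at P21 than at P4, which favours a rise, so these shares are not like for like. Every P14 sample was below every P8 sample for 2 members, among them *Dynlt1b*, in which only P14 replicate 1 was above 1 CPM at that age.

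The 12 were *Cpeb1*, *Scn4b*, *Hes3*, *Cbln3*, *Ttpa*, *Gm13944*, *Clic6*, *Gabra6*, *Rspo3*, *Muc3a*, *Mobp* and *Cyp27a1*, and in each of them every P14 sample was above every P8 sample. The first 6 of these kept the call in all 12 alternative fits, whereas the other 6 lost it in at least one.

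**Figure D3:**
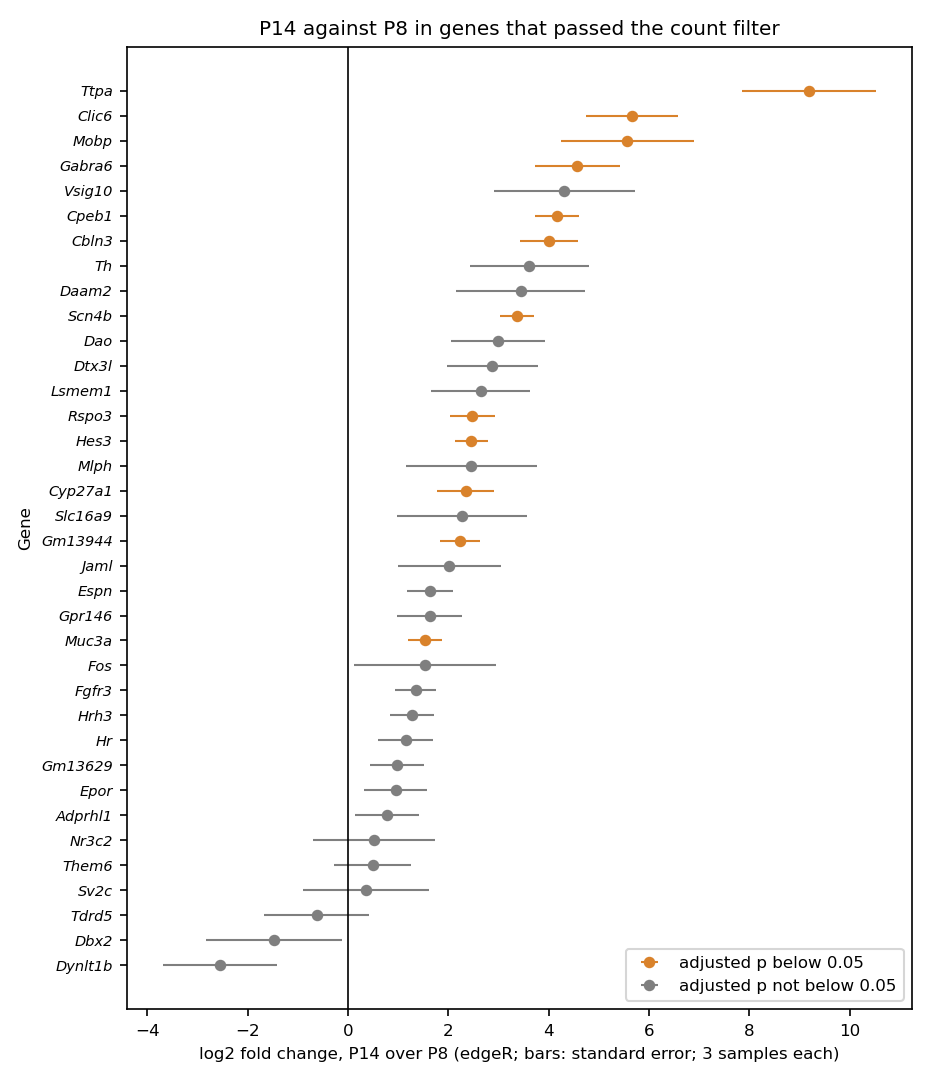
log2 fold change of P14 over P8 (3 samples each) with its standard error, derived from the F statistic, for the named genes that passed the count filter. Genes are ordered by size and coloured by the adjusted p of edgeR's quasi-likelihood test. The 12 genes past the threshold lie between 1.53 (*Muc3a*) and 9.19 (*Ttpa*, at 0 counts in all P8 samples, so its fitted size depends on the prior count), and no gene drawn below 0 is past it.

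Members that encode membrane and synaptic proteins differed in their courses, and of the 4 given here edgeR called 1, *Scn4b*, between P8 and P14. *Scn4b* (chromosome 9, 45138395 to 45154152, plus strand) encodes the beta-4 subunit of voltage-gated sodium channels, whose cytoplasmic tail is tied to the resurgent sodium current of PCs. It had 1 count in the 6 P0 and P4 libraries and measured 9.97, 7.82 and 8.04 CPM at P8, 91.2, 58.9 and 91.8 CPM at P14 and 138, 111 and 137 CPM at P21. The P8, P14 and P21 samples did not overlap, and the replicates at P8 lay within a narrow range. The rise from P8 to P14 (log2 fold change 3.37, SE 0.33, adjusted p = 0.000416) took *Scn4b* to 62.8% of its P21 mean. Among the 12 listed sodium channel subunits and partners 11 were tested between P8 and P14, of which 3 rose and none fell by edgeR. At an unadjusted p under 0.05, 3 were lower, and DESeq2 called 1 lower. The other risers were *Scn2b*, a second beta subunit (323 to 749.7 CPM), and *Scn1a*, a pore-forming subunit (168 to 295 CPM). Both were already present at P0, at 55.2 and 28.3 CPM.

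*Hrh3* (chromosome 2, 180099465 to 180104488, minus strand), the inhibitory histamine H3 receptor, was present early. It measured 51.8, 14.1 and 48.6 CPM at P8, 109.8, 71.4 and 69.3 CPM at P14 and 87.99, 75.6 and 34.7 CPM at P21. Its P14 samples were all above its P8 samples, but the difference did not pass the test (log2 fold change 1.28, SE 0.44, adjusted p = 0.124), and P14 and P21 overlapped. *Espn*, an actin-bundling protein of microvilli, hair cell stereocilia and dendritic spines, had no count at P0 and P4 and measured 19.5, 7.24 and 10.3 CPM at P8, 37.4, 32.5 and 33.6 CPM at P14 and 41.1, 39.4 and 30.8 CPM at P21. The P8 and P14 samples of *Espn* did not overlap either, and it missed the threshold with an adjusted p of 0.06097.

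*Sv2c* (chromosome 13, 95954594 to 96132577, minus strand), a glycoprotein of synaptic vesicle membranes, was low until P21. It measured 1.91, 0.196 and 2.43 CPM at P8 and 2.698, 2.37 and 0.1796 CPM at P14, values that overlapped and did not differ beyond their spread (log2 fold change 0.36, SE 1.26, adjusted p = 0.9195). At P21 the samples were at 59.8, 62.6 and 54.8 CPM, 33.8 times the P14 mean, with a small spread (59.1 ± 3.96 CPM). Its P14 mean was 2.96% of its P21 mean, the lowest share in the set.

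**Figure D4:**
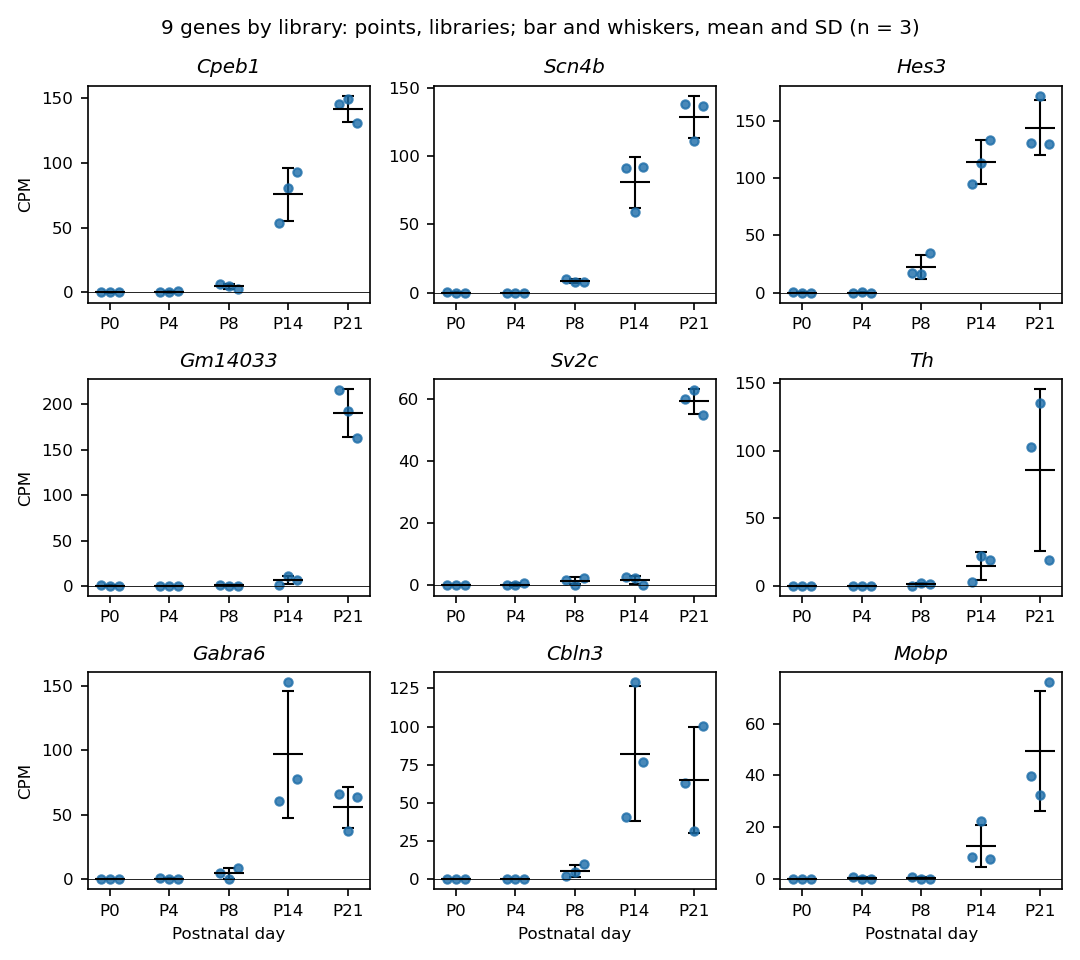
CPM of 9 members at each postnatal day, with points for libraries and a bar with whiskers for the mean and SD (n = 3), each panel on its own linear axis. *Cpeb1*, *Scn4b* and *Hes3* are higher at P14 than at P8 in every sample, *Gm14033* and *Sv2c* are near 0 until P21, *Th* is spread widely at P21, and *Gabra6* and *Cbln3* are highest in P14 replicate 2.

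Regulators of transcription and translation formed a second group with mixed timing. *Cpeb1* (chromosome 7, 81347026 to 81455465, minus strand) binds the cytoplasmic polyadenylation element of mRNAs and controls their translation, at synapses among other places. It was at 6.58, 4.89 and 2.43 CPM at P8, 53.5, 80.5 and 93.4 CPM at P14 and 145, 149.8 and 131 CPM at P21, with no overlap between any of these ages. Its level thus went from 3.27% of the P21 mean at P8 to 53.4% at P14 (log2 fold change 4.17, SE 0.44, adjusted p = 0.000581).

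*Hes3* (chromosome 4, 152285972 to 152291662, minus strand), a basic helix-loop-helix repressor of the Hes family, came up earlier. It was at 16.97, 16.4 and 34.98 CPM at P8, 95.3, 114 and 133 CPM at P14 and 131, 172 and 130.04 CPM at P21. P8 stood clear of both other ages, whereas P14 and P21 overlapped. The rise from P8 to P14 passed the test (log2 fold change 2.46, SE 0.34, adjusted p = 0.00253), and the P14 mean was 79.1% of the P21 mean.

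The remaining regulators were modest in level. *Hr*, the hairless corepressor that binds nuclear receptors, measured 13.8, 4.89 and 10.7 CPM at P8, 17.03, 24.1 and 17.8 CPM at P14 and 32.9, 20.7 and 11.7 CPM at P21, and did not pass the test (adjusted p = 0.279). *Nr3c2*, the mineralocorticoid receptor, was scattered at every age, with 6.15, 0 and 14.6 CPM at P8, 8.43, 3.83 and 14.5 CPM at P14 and 9.09, 19.98 and 10.6 CPM at P21 (adjusted p = 0.872). *Dbx2*, a homeobox gene, had P8 values of 11.9, 0.196 and 5.7996 CPM and P14 values of 0.169, 2.74 and 2.87 CPM, which overlapped (adjusted p = 0.615), and 13.8, 13.3 and 9.56 CPM at P21. Replicates of *Nr3c2* and *Dbx2* at P8 ran from near 0 to well above the bar, so the spread between replicates was too wide to place them in time. *Fos*, an immediate early gene induced by activity and by handling of tissue, was likewise uneven, at 0.169, 27.9 and 14.01 CPM at P14 and 20.8, 67.3 and 32.8 CPM at P21. Among the 21 listed nuclear receptors and circadian regulators 19 were tested, of which edgeR called none higher and 1, *Thra* (a thyroid hormone receptor), fell. At an unadjusted p under 0.05, 5 of them were higher, and DESeq2 called 1 higher.

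Secreted and signalling genes held one of the highest members. *Muc3a* (chromosome 5, 137208813 to 137212389, minus strand), a mucin of cell surfaces, was at 16.8, 33.1 and 40.97 CPM at P8, 79.6, 76.3 and 83.1 CPM at P14 and 206, 234 and 184 CPM at P21. All 3 ages were separate, and P14 was higher than P8 (log2 fold change 1.53, SE 0.34, adjusted p = 0.0245), a call that was lost when either P14 replicate 1, 2 or 3 or P8 replicate 2 was left out. *Rspo3* (chromosome 10, 29452416 to 29535867, minus strand), an R-spondin that amplifies Wnt signals, had no count at P0 and P4. It measured 5.304, 7.04 and 6.36 CPM at P8, 35.8, 25.4 and 33.8 CPM at P14 and 56.02, 39.96 and 35.8 CPM at P21. The rise of *Rspo3* (log2 fold change 2.48, SE 0.44, adjusted p = 0.00944) was followed by a narrow gap between P14 and P21, where the lowest P21 sample lay just above the highest P14 sample. The growth factor receptor *Fgfr3* was at 14.003, 9.78 and 14.8 CPM at P8 and 31.9, 27.2 and 29.6 CPM at P14 (adjusted p = 0.0816), and the erythropoietin receptor *Epor* at 6.15, 6.26 and 9.35 CPM and 18.05, 9.85 and 10.1 CPM (adjusted p = 0.456). *Epor* had the highest share of its P21 level at P8 outside the members past the bar at P8 and not at P14, 65.7%.

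*Th* (chromosome 7, 142892752 to 142931128, minus strand), tyrosine hydroxylase, the rate-limiting enzyme of catecholamine synthesis, had no count at P0 and P4. It measured 0, 2.35 and 1.497 CPM at P8, 2.87, 22.1 and 19.4 CPM at P14 and 103, 135 and 19.4 CPM at P21. P21 replicate 3 was level with P14 replicate 3 while the other P21 samples were over 5 times higher, so the spread at P21 was wide (85.9 ± 59.8 CPM), and the difference between P8 and P14 did not pass the test (log2 fold change 3.62, SE 1.19, adjusted p = 0.109). Against a floor of 3 counts over the P0 and P4 libraries its P21 mean was at least 876-fold higher. The other enzymes of the pathway did not accompany it, since *Ddc* was at 0.285 CPM at P21 and *Dbh* had no count. Of the 18 listed catecholamine and neuropeptide genes 7 were tested, and *Penk* and *Npy* rose from P8 to P14 and none fell.

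*Prl2c3* (chromosome 13, 12790816 to 12800079, minus strand), a member of the prolactin-related proliferin family, was at 0 at P0, P4 and P8, at 4.55, 0.182 and 1.08 CPM at P14 and at 17.9, 36.2 and 27.1 CPM at P21. Its P21 mean was at least 137-fold above the floor of 3 counts over the P8 libraries. The family has near-identical copies and reads that map to several were not counted, so the split between copies is uncertain. *Prl2c2* was at 8.56 CPM at P21, and none of the 7 listed prolactin family genes had enough counts to be tested.

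Genes best known from other cells than PCs made up a separate group. *Gabra6* (chromosome 11, 42306437 to 42321072, minus strand), the alpha-6 subunit of GABA-A receptors, and *Cbln3* (chromosome 14, 55878913 to 55884392, minus strand), a cerebellin, are markers of mature granule neurons. *Gabra6* was at 4.67, 0 and 8.61 CPM at P8, 60.2, 153 and 77.2 CPM at P14 and 65.7, 37.4 and 63.8 CPM at P21. *Cbln3* was at 2.33, 4.498 and 9.73 CPM at P8, 40.8, 129 and 77.03 CPM at P14 and 63.1, 31.5 and 101 CPM at P21. Both were highest in P14 replicate 2 and, at P21, lowest in replicate 2, and both rose from P8 to P14 (*Gabra6* log2 fold change 4.57, SE 0.84, adjusted p = 0.0105, and *Cbln3* log2 fold change 4.01, SE 0.58, adjusted p = 0.00326).

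The 5 other granule neuron markers (*Cbln1*, *Neurod1*, *Rbfox3*, *Etv1* and *Slc17a7*) summed to 981, 583 and 801 CPM at P8, 427, 1079.6 and 469 CPM at P14 and 329, 247 and 497 CPM at P21, in replicate order. Their sum was thus also highest in P14 replicate 2 and lowest at P21 in replicate 2, but it was as high at P8, when *Gabra6* and *Cbln3* were low, as at P14. With *Gabra6* and *Cbln3* the whole list of 7 ranged from 279 to 425 CPM at P0, from 587 to 988 CPM at P8, from 528 to 1361 CPM at P14 and from 316 to 661 CPM at P21, no marker was at 0 at P8 or later on average. No other of the 7 passed edgeR's test from P8 to P14, and 2 more were higher at an unadjusted p under 0.05. The part of granule neuron RNA in these results was not tested. Of the 15 listed GABA-A receptor subunits 12 were tested, of which 3 rose, *Gabra6* among them, and none fell.

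*Clic6* (chromosome 16, 92485736 to 92541243, plus strand), a chloride intracellular channel protein that is abundant in choroid plexus, was at 1.91, 0.391 and 0 CPM at P8, 29.7, 25.002 and 51.2 CPM at P14 and 39.3, 98.6 and 69.4 CPM at P21 (log2 fold change 5.67, SE 0.92, adjusted p = 0.00565). Of the 8 listed choroid plexus markers 2 were tested, *Clic6* rose and edgeR, DESeq2 and limma-voom called 0 lower, with 0 lower also at an unadjusted p under 0.05. The 7 other markers summed to between 30.3 and 66.0 CPM at P0, to 0.506, 7.85 and 3.05 CPM at P14 and to 1.76, 3.5999 and 1.14 CPM at P21, and the defining marker *Ttr* averaged 22.9 CPM at P0 and 0.333 CPM at P21. *Clic6* shares a strand and overlaps with the transcript *2410124H12Rik* (2.42 CPM at P0 and 87.3 CPM at P21), so the split of reads between the pair is uncertain.

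The set held 3 myelin genes. *Mobp* (chromosome 9, 120149707 to 120181484, plus strand), myelin-associated oligodendrocyte basic protein, was at 0.849, 0 and 0 CPM at P8, 8.26, 22.3 and 7.72 CPM at P14 and 39.9, 32.6 and 76.1 CPM at P21. *Mog*, a glycoprotein on the surface of myelin, was at 0 in all P8 samples, at 5.73, 0.72997 and 6.64 CPM at P14 and at 16.7, 7.1998 and 14.99 CPM at P21, and *Mag*, an adhesion protein of the inner myelin layer, at 2.12, 0.587 and 0 CPM at P8, 1.69, 0 and 0.898 CPM at P14 and 7.33, 9.18 and 15.8 CPM at P21. All 3 genes had every P21 sample above every P14 sample, and *Mobp*, the only one with enough counts to test, rose from P8 to P14 (log2 fold change 5.57, SE 1.33, adjusted p = 0.0333). That call was lost when any of P14 replicates 1, 2 and 3 or P8 replicates 2 and 3 was left out.

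The 11 other oligodendrocyte markers summed to 388, 405 and 552 CPM at P8, 701, 779.6 and 862 CPM at P14 and 730.3, 741 and 1117 CPM at P21, in replicate order, of which *Tspan2*, *Cnp* and *Mbp* held most. P21 replicate 3 had the highest level of *Mobp* and *Mag* and the highest sum of the 11, whereas *Mog* was highest in P21 replicate 1. Within P14 *Mobp* was highest in replicate 2, where *Mog* and *Mag* were lowest. The whole list of 14 ranged from 72.8 to 87.4 CPM at P0 and from 790.2 to 1224 CPM at P21, with 9 tested, 3 risers (*Mobp*, *Trf* and *Tspan2*) and 1 gene, *Aspa*, that fell. *Hapln2* was at 0 until P21, when it averaged 0.428 CPM. The part of oligodendrocyte RNA in the myelin genes was not tested.

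Lipid and metabolite genes reached moderate levels. *Cyp27a1* (chromosome 1, 74713574 to 74737892, plus strand), the mitochondrial sterol 27-hydroxylase, was at 5.73, 3.52 and 3.93 CPM at P8, 15.5, 25.2 and 20.1 CPM at P14 and 45.5, 53.8 and 38.5 CPM at P21. Its 3 ages did not overlap and it rose from P8 to P14 (log2 fold change 2.34, SE 0.56, adjusted p = 0.0336), a call that did not survive leaving out any one of the 6 samples. *Ttpa* (chromosome 4, 20007938 to 20030785, plus strand), the alpha-tocopherol transfer protein whose loss causes ataxia with vitamin E deficiency, had no count at P8, 8.43, 18.2 and 12.4 CPM at P14 and 18.8, 6.2999 and 5.995 CPM at P21. Against the floor of 3 counts over the P8 libraries the P14 mean of *Ttpa* was at least 65.9-fold higher (adjusted p = 0.00652), and P14 and P21 overlapped. *Dao*, D-amino acid oxidase, known from cerebellar glia, was at 5.23, 13.5 and 5.93 CPM at P14 and 29.04, 13.1 and 25.1 CPM at P21 (P14 against P8, adjusted p = 0.0921).

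The annotation lists 3 members as noncoding RNAs, which is 7.32% of the set against 3.57% of genes expressed at P21. *Gm14033* (chromosome 2, 55411790 to 55433435, plus strand), a long intergenic RNA that ends 2.54 kb before *Kcnj3* on the same strand, was near 0 at P8. It was at 1.06, 0.391 and 0 CPM at P8, 1.35, 10.8 and 6.82 CPM at P14 and 216, 192 and 163 CPM at P21, so its P21 mean was 30.1 times its P14 mean. *Kcnj3*, a subunit of G protein-gated potassium channels, went from 36.2 CPM at P0 to 74.7 CPM at P21 and thus did not share this course. P14 replicate 1 was below the other P14 samples for *Gm14033*.

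*Gm13944* (chromosome 2, 77462669 to 77480938, plus strand), an RNA antisense to *Zfp385b*, was at 48.6, 20.1 and 70.9 CPM at P8, 251, 164 and 176 CPM at P14 and 176, 159 and 157 CPM at P21, and rose from P8 to P14 (log2 fold change 2.23, SE 0.39, adjusted p = 0.00859). *Gm13629* (chromosome 2, 66440880 to 66546026, plus strand), antisense to *Scn9a*, was at 7.43, 7.43 and 11.04 CPM at P8, 16.2, 13.9 and 16.2 CPM at P14 and 56.02, 23.4 and 43.3 CPM at P21 and did not pass the test (adjusted p = 0.3599). The library kit does not mark strand, so reads of an antisense gene and of its partner cannot be told apart where they overlap. *Zfp385b* stayed between 41.6 and 59.2 CPM on average over the 5 ages, and *Scn9a* went from 20.6 CPM at P0 to 0.298 CPM at P21. *Scn1a*, on the opposite strand 0.04 kb from *Gm13629* and not overlapping it, went from 28.3 CPM at P0 to 363 CPM at P21. Whether reads of *Scn1a* transcripts entered the *Gm13629* counts was not tested. Per kilobase of exon *Gm13944* had the highest level of the set at P21 (185 CPM per kilobase of exon, RPKM), followed by *Muc3a* (110.1), *Gm14033* (83.1) and *Hes3* (73.6), while *Th*, *Gm13629* and *Cpeb1* were near each other at 36.3, 35.6 and 33.8 RPKM.

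*Dynlt1b* (chromosome 17, 6430112 to 6436296, plus strand), a dynein light chain, met the rule but differed sharply between replicates within P14. It was at 69.6, 65.1 and 76.9 CPM at P8, 31.03, 0.182 and 0.718 CPM at P14 and 19.1, 14.2 and 11.8 CPM at P21. Within P14 it was present in replicate 1 and at or near 0 in replicates 2 and 3. *Wdfy1* and *Fbn1* had the opposite pattern, with *Wdfy1* between 91.4 and 263 CPM in the 8 libraries low in *Dynlt1b* and between 10.8 and 21.7 CPM in the other 7. *Dynlt1b* did not pass the test of P14 against P8 (adjusted p = 0.246), and passed it as lower when P14 replicate 1 was left out. *Dynlt1b* has near-identical relatives whose reads are not counted when they map to several genes.

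**Figure D5:**
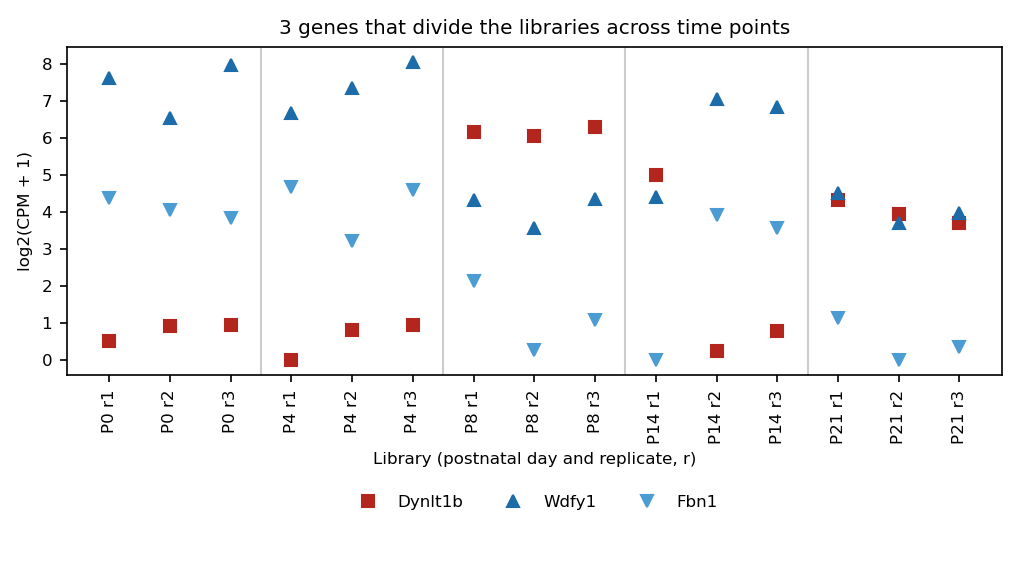
log2(CPM + 1) of *Dynlt1b*, *Wdfy1* and *Fbn1* in each of the 15 libraries, by postnatal day and replicate. *Dynlt1b* is high in all P8 and P21 libraries and P14 replicate 1 and near 0 elsewhere, and *Wdfy1* and *Fbn1* are high where it is low.

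Over the whole set, P14 replicate 1 was more than 10 times both other P14 samples in 2 members, among them *Dynlt1b*. It was more than 3 times both in *Prl2c3* as well, and both others were more than 3 times replicate 1 in *Gm14033*, *Th*, *Fos*, *Jaml* and *Dbx2*. None of the 12 members that rose between P8 and P14 is in these groups. A spread of that size within P14 itself works against passing the test, so nothing is concluded from this absence.

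The members not described so far were of low to moderate level. They are *Lsmem1*, a single-pass membrane protein, *Dtx3l*, a ubiquitin ligase, *Mlph*, a melanosome transport linker, *Adprhl1*, *Gpr146*, an orphan receptor, *Tdrd5*, a tudor domain protein of germ cells, *Slc16a9*, a monocarboxylate transporter, *Jaml*, an adhesion molecule, *Daam2*, a formin, *Vsig10* and *Them6*. Their P21 means ran from 10.3 CPM (*Them6*) to 35.4 CPM (*Lsmem1*), and none of the 11 was called between P8 and P14. *Vsig10* had the largest fitted difference among them (log2 fold change 4.31, SE 1.41, adjusted p = 0.106), with P14 samples at 6.07, 7.12 and 9.52 CPM and a single P8 sample above 0. *Tdrd5* was lower at P14 than at P8 on average (4.396 ± 1.33 against 7.55 ± 8.89 CPM), with P8 values of 17.6, 4.303 and 0.748 CPM that enclosed the P14 values.

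By position the members were spread over 16 chromosomes, with at most 5 on one and none on X or Y. Members with another within 1 Mb were *Jaml* and *Scn4b*, 29.9 kb apart on chromosome 9, and *Espn* and *Hes3*, 133.6 kb apart on chromosome 4. *Scn2b*, which was also higher at later ages, lies between *Jaml* and *Scn4b*. *Icmt*, a methyltransferase 5.57 kb from *Hes3*, went from 3.74 CPM at P0 to 1139.8 CPM at P21. Neighbours of *Hes3* did not share one course. *Acot7* was also higher at P21 than at P0, *Gpr153*, closer at 0.635 kb, had no comparable rise, and *Rpl22* and *Chd5* were lower. Whether members had rising neighbours more often than other genes was not tested. The median summed exon length was 3469 bases in the members and 4745 bases in genes expressed at P21, and the median number of exon blocks 7 against 10. *Dtx3l* overlaps *Parp9* on the opposite strand, and *Gpr146* overlaps *3110082I17Rik*, so their counts carry the same limit as the antisense RNAs.

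Just inside and just outside the thresholds the values lay close together. For the ceiling of 2 CPM at P0 and P4 the highest samples of the nearest members were 1.78 (*Dbx2* and *Mog*) and 1.49 CPM (*Hr*), and those of the nearest genes outside were 2.04 (*Mal* and *Sowahb*) and 2.35 CPM (*Synm*). For the P21 mean of 10 CPM the nearest members were *Them6* (10.3), *Ttpa* (10.4) and *Mag* (10.8), and the nearest genes outside *Hist1h2be* (9.71), *Parp4* (9.60) and *Crtam* (9.40). For the lowest P21 sample the nearest members were *Ttpa* (5.995), *Them6* (6.42) and *Vsig10* (6.45), and the nearest outside were *Acvr1c* (4.11), *Acot11* (3.52) and *Nlrp10* (2.88).

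Gene lists of related pathways and other cells give the setting of these members. Of the 51 listed potassium channel subunits 38 were tested between P8 and P14, 7 rose and none fell by edgeR, while 2 were lower at an unadjusted p under 0.05 and DESeq2 called 14 higher and 0 lower. None of them was a member. Of the 21 calcium channel genes 17 were tested, 3 rose and 1 fell. Of the 12 perineuronal net genes 8 were tested, 1 rose and 3 fell, and of the 15 antigen presentation and complement genes 6 were tested, 1 rose and 1 fell. None of these 3 lists held a member. Of the PC markers 5 of 6 rose. Among markers of other cells, 4 of the 8 Bergmann glia and astrocyte genes rose and 4 fell, and 1 of the 5 vascular genes fell. The summed level of the Bergmann glia and astrocyte list was between 8189 and 9959 CPM at P8 and between 2447 and 4050 CPM at P21. None of the basket and stellate cell, Golgi cell, microglia or erythroid genes tested (5, 3, 4 and 5) was called by edgeR, DESeq2 or limma-voom in either direction, and 1 microglia gene was lower at an unadjusted p under 0.05. These lists also held no member.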

How the data were processed

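RNA of laser-captured mouse PCs was amplified with the SMARTer Ultra Low kit and sequenced in 15 libraries. After trimming, the authors mapped reads with GSNAP against the mouse genome (GRCm38/mm10), retained unique alignments and deposited whole-number counts per gene from HTSeq (0.5.3p9, intersection-strict mode), with no normalization. The annotation release and strand setting used for counting are not given in the sources used here. Unique mapping lowers the counts of genes with near-identical copies.

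From these counts CPM and RPKM (with summed exon length) were computed, with names and positions from GENCODE M21 on GRCm38. P14 was tested against P8 (3 samples each) with edgeR 4.0.16 in R 4.3.3 (quasi-likelihood F test, TMM, filterByExpr, Benjamini-Hochberg adjustment at 0.05), since the rule did not use these ages. The SE given with an edgeR fold change is its absolute log2 size divided by the square root of the F statistic, not a separate estimate. The biological coefficient of variation was 0.495. DESeq2 1.42.0, limma 3.58.1 (limma-voom), other scaling, filters and thresholds, a fit with a replicate block and fits without each replicate were alternatives. The code was tested on simulated data. Python 3.11.15, pandas 2.3.3 and matplotlib 3.10.9 were used for the rest. HTSeq's tallies of reads that it gave to no gene were kept out of the totals, and reads outside genes were 16.7% to 29.8% of counted and such reads together. Floors of 3 counts cover counting error only.

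The rule for naming members took the 10 with the highest RPKM at P21, the 10 with the largest rise among those called, those in a gene list, those with extreme shares of the P21 level at P8 or P14 and those nearest a threshold, 28 in all. The other 13 were named after their values were seen. 1 of the 28 and some genes of the lists are counted but not reported here by name. The members and all lists were chosen with earlier results of these data known.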

Additional observations from a re-analysis of the deposited data

Results flagged for a closer look

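*Xist*, which belongs to no comparison above, measured 328 CPM in P0 replicate 1 and at most 0.187 CPM in any other library. *Wdfy1* and *Fbn1* are not in the gene set, and both split the libraries across ages. In the 8 libraries low in *Dynlt1b* the lowest level of *Wdfy1* was 91.4 CPM, against at most 21.7 CPM in the other 7. The lowest level of *Fbn1* in those 8 libraries was 8.19 CPM, against at most 3.39 CPM in the other 7. With 3 samples per age no single sample was tested as an outlier.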

How the results depend on the processing

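The rule was sensitive to its P21 mean, with 26 genes at a mean of at least 20 CPM, and gave 42 to 51 genes when 1 P0, P4 or P21 sample was left out. A ceiling of 1 CPM at P0 and P4 gave 33 genes, with *Cpeb1*, *Epor*, *Fos*, *Hr*, *Adprhl1*, *Dbx2*, *Tdrd5* and *Mog* lost. With a ceiling of 4 CPM 55 genes met the rule and with TMM library sizes 49, each time with all 41 among them. For P14 against P8, DESeq2's Wald test called 20 members higher and an unadjusted p under 0.05 marked 22, while edgeR without 1 sample called 7 (without P14 replicate 3) to 12. Over all genes DESeq2 gave 803 higher and 681 lower, a fit of all 15 samples 190.0 and 196, and leaving out 1 sample 199 to 364 and 103 to 214. No member was lower in the reported fit, and 0 to 2 without 1 sample. limma-voom and edgeR without P14 replicate 1 gave 2 lower, among them *Dynlt1b*.

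The replicate block called 9 members higher, and 275 genes higher and 153 lower over all. Same-numbered P8 and P14 samples did not deviate together over all genes tested (correlations of −0.031, −0.022 and −0.004). These values gave no sign of a pairing by number, but could miss one that affects few genes.

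With a bar of 2 CPM 17 members were past it at P8 and P14 and 8 at neither age, and with 10 CPM the numbers were 4 and 21. Without P14 replicate 1, 7 were past it at neither age, and without the members that followed the library division 0 were past it at P8 only; both alternatives were chosen after seeing the data, as was the unadjusted p. The median share of the P21 level at P14 ran from 54.9% to 68.5% without 1 sample. Among the tested members that the naming rule took, the log2 fold change of *Sv2c* ran from −0.15 to 0.89 without 1 sample. That of *Nr3c2* ran from −0.060 to 1.70, and no other of these changed direction. Members named after their values were seen, such as *Tdrd5*, were not part of this comparison. The cause of these shifts was not tested. Low counts at P8 limit the precision of the fold changes.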

Other observations

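Some well-known genes of mature PCs missed the set through 1 library. Without P4 replicate 2 the rule selected 51 genes, among them *Ppp1r17*, a phosphatase inhibitor of PCs, and *Grid2ip*, a partner of the delta-2 glutamate receptor. *Ppp1r17* measured 0.263, 15.4 and 0.557 CPM in the 3 P4 libraries and between 1205 and 1479 CPM at P21. Without P4 replicate 3 the rule selected 49 genes, among them *Gabrd*, the delta subunit of GABA-A receptors, and without P0 replicate 2 it selected 47, among them *Slc17a7*, the vesicular glutamate transporter of granule neurons.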
